A study of Liolophura hirtosa with 16 samples.

Results

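Of the 493 sequences measured on arrays of a chiton, 32 gave a signal above a set brightness that was nearly level across 3 sections of the tooth ribbon and foot muscle. They were carried by 140 of the 2240 probes. To choose them, the deposited signal of every probe, a ratio to the mean of all probes on its array, was taken to log2, and the 16 arrays were quantile-normalised, which gives all arrays one distribution of values. Probes were averaged per sequence and the 4 arrays of each tissue were averaged. A sequence was kept if the mean of its 4 tissue means, called its level from here on, lay above -1, and if its highest tissue mean was less than 0.4 above its lowest. A level of 0 is about the array mean, -1 is 0.5 of it, and a tissue range of 0.4 is a 1.32-fold difference. The members were thus chosen by these same values, the level and the tissue means, so their levels and tissue differences, and the intervals and calls of their tissue differences given later, are a description from which nothing is concluded.

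The animals were 12 wild adult chitons, Acanthopleura hirtosa, entered in the labels as Liolophura hirtosa. The groups were the radula sections with immature teeth, with iron-deposited teeth and with calcium-deposited teeth, and foot muscle, with 4 arrays each. Each array was hybridised with Cy5-labelled total RNA pooled in equal parts from 3 animals, and no group was treated. All values are from such pools of whole tissue, in which fewer cells of a type and less RNA per cell cannot be told apart. The labels call the section tissue radula sac, and no marker gene could be used to check a tissue, because the gene name column of the scanner tables was empty.

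In 4 arrays the deposited value table and the scanner files went against each other. The columns of immature teeth replicates 2 and 4 and calcium-deposited teeth replicates 2 and 4 held the values of the scanner files recorded for the other of these tissues with the same number. The SD of the log2 ratio between such a column and its own file was 0.86 to 0.93, against at most 9.65e-05 for the 12 other arrays. The values below follow the value table, which the choice of members used. With the files as recorded, 46 sequences met both limits and included all 32 members, and with the 4 arrays left out, 26 did and included 25 of the members. Arrays had median foreground intensities of 200.1 to 426, no spot of a member was at the scanner maximum, and the number of arrays limits the precision.

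The radula is a ribbon of teeth with which chitons scrape rock. New rows are laid down continuously in the radula sac as an organic scaffold rich in chitin, and as rows move forward the teeth first take up iron, which ends as magnetite, and then fill with calcium mineral. Foot muscle makes no teeth and was sampled from the same animals. Transcripts that most cells need, such as those for ribosomal proteins, the cytoskeleton and energy metabolism, are textbook examples of nearly level expression, but the sequences here carry only clone or contig names, and no gene or role is given to them.

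The probes on which the following description turns are given here as deposited, 5′ to 3′. The first 5 lines show probes that share a run of letters with a probe of another sequence, with the shared run in capitals. G-C9-5-SMART is no member and is shown for its match to Contig[0085]. Numbers after a name are the first and last base within the deposited sequence.
Contig[0085], 366 to 400: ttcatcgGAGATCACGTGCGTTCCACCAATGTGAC
G-C9-5-SMART, 110 to 144: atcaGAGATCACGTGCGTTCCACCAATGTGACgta
PlateC-G11-5-SMART, 46 to 80: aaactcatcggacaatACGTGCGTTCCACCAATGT
PlateF-E12-5-SMART, 152 to 188: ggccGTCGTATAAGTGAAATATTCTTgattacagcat
PlateD-B7-5-SMART, 26 to 65: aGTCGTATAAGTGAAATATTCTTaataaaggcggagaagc

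The next lines show the 5 probes of Plate-C-C7-5-SMART, of which every one was nearly level by itself, and the brightest probe of PlateE-G1-5-SMART, of Contig[0123] and of Plate-C-C10-5-SMART. The last of these is the single probe of its sequence. No capitals are used, since none of these probes shares a run of 16 or more letters with a probe of another sequence. Probes of Plate-C-C7-5-SMART overlap each other in position.
Plate-C-C7-5-SMART, 17 to 51: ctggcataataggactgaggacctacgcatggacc
Plate-C-C7-5-SMART, 89 to 123: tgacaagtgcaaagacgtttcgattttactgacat
Plate-C-C7-5-SMART, 118 to 154: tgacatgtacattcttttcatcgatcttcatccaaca
Plate-C-C7-5-SMART, 142 to 181: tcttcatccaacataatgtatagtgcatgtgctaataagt
Plate-C-C7-5-SMART, 163 to 202: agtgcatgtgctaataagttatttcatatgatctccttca
PlateE-G1-5-SMART, 369 to 403: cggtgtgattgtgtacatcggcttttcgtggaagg
Contig[0123], 561 to 595: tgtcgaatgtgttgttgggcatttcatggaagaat
Plate-C-C10-5-SMART, 9 to 43: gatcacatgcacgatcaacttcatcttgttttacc

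The third set shows probes whose own tissue differences went beyond the limit set for the mean of their sequence. They are 2 probes of Contig[0059] that differed in opposite directions in foot muscle, and the bright probe of PlateE-G3-5-SMART.
Contig[0059], 17 to 51: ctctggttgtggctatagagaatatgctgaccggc
Contig[0059], 425 to 459: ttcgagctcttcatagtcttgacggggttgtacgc
PlateE-G3-5-SMART, 565 to 599: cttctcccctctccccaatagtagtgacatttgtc

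The members were moderately rather than highly bright. Their levels lay between -0.96 and 0.42 with a median of -0.82, and they held ranks between 34 and 164 of the 493 sequences. Only 2 lay above the array mean and only 8 above -0.5. The 136 sequences above the same brightness limit that were not even had a median level of -0.16 and reached 5.40, and the median of all 493 sequences was -1.34. The word bright in the name of the set thus holds against most sequences on the array, of which 168 (34.1%) passed the level limit, and not against the brightest ones. The range limit was passed by 308 sequences (62.5%), of which 276 were below the level limit, and both limits by 6.49%.

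**Figure D1:**
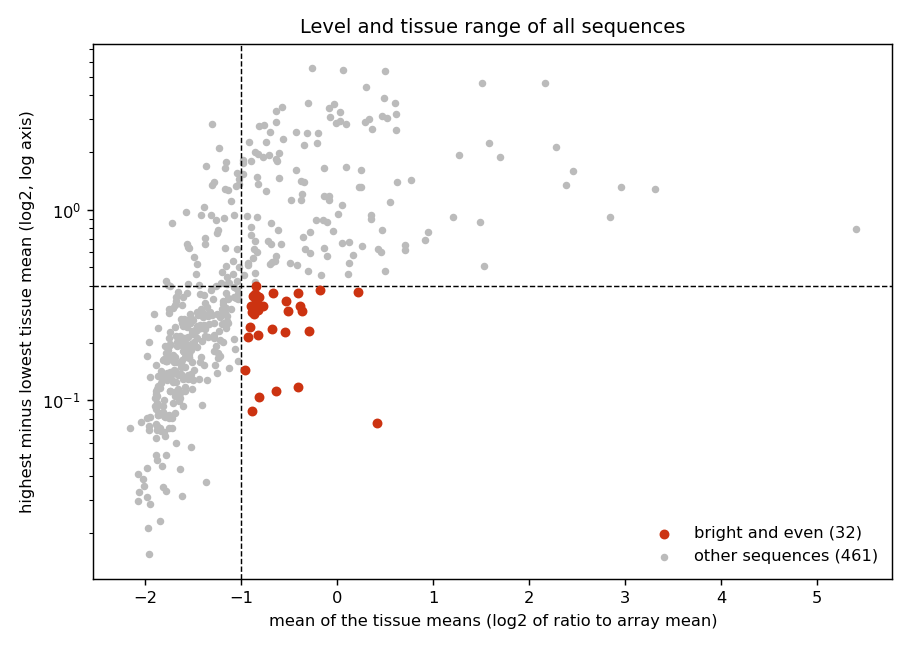
Level of each sequence (mean of the 4 tissue means, log2 of the ratio to the array mean) against the difference between its highest and lowest tissue mean (log2 units, log axis), with the 2 limits as dashed lines. The 32 members (red) fill the lower left of the bright side, with levels up to 0.42, while the brightest of the other sequences (grey) reach 5.40 and lie above the range limit.

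The members are set beside other sequences here in features that the rule did not use, and no difference in these features was tested. A name that begins with Contig was carried by 8 members (25.0%), against 45.6% of the bright sequences that were not even and 22.1% of all sequences. Their median length was 567 nt (96 to 1394 nt), against 626 nt for the bright sequences that were not even and 606 nt for all. A length under 300 nt was recorded for 10 members (31.2%), against 16.9% and 18.7% in those groups. The median GC content of the probes was 42.3% in members, 43.7% in bright sequences that were not even and 41.8% over all sequences. Most members, 21, had 5 probes, as did 334 of all 493 sequences. Only 1 or 2 probes carried 4 members, 7 of the 136 bright sequences that were not even and 22 of all sequences. The SD between arrays of one tissue, pooled over the 4 tissues, had a median of 0.12 in members, 0.12 in the bright sequences that were not even and 0.091 in all.

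Values near the 2 limits show how fine the choice was. Just above the level limit lay G-A5-5-SMART at -0.96, PlateA-F1-5-SMART at -0.93, Contig[0127] at -0.91 and Plate-D-E9-5-SMART at -0.90. Just below it, and also even, lay Plate-D-D10-5-SMART and Contig[0275] at -1.03 and PlateB-A4-5-SMART and Plate-C-A12-5-SMART at -1.04. Just inside the range limit were Plate-D-E5-5-SMART with a tissue range of 0.40 (0.399 unrounded), PlateF-A3-5-SMART with 0.38, and Plate-A-B11-5-SMART and G-E4-5-SMART with 0.37. Just outside it were PlateF-F2-5-SMART with 0.42, PlateB-D7-5-SMART with 0.45, and PlateA-H3-5-SMART and Contig[0180] with 0.46. No gap in either measure set the members apart.

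Only 2 members lay above the array mean. Plate-C-C10-5-SMART, of 129 nt and with 1 probe, was the brightest member with a level of 0.42. Its values were 0.16, 0.25, 0.95 and 0.46 in immature teeth, 0.17, 0.27, 0.59 and 0.58 in iron-deposited teeth, 0.056, 0.15, 0.67 and 0.65 in calcium-deposited teeth and -0.32, 0.33, 0.91 and 0.77 in foot muscle. Its tissue means of 0.46 ± 0.35 in immature teeth, 0.40 ± 0.21 in iron-deposited teeth, 0.38 ± 0.32 in calcium-deposited teeth and 0.42 ± 0.55 in foot muscle (SD, n = 4 each) gave the smallest tissue range of all members, 0.076. Its arrays within a tissue were spread more widely than those of any other member, with a pooled SD of 0.38, so that the 4 groups overlapped almost entirely and the 95% intervals of its pairwise differences reached 0.59.

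Plate-A-B11-5-SMART, the other sequence above the array mean, had a level of 0.21 and a tissue range of 0.37, close to the limit. Its values were 0.12, -0.027, -0.057 and -0.061 in immature teeth, 0.36, 0.27, 0.24 and 0.094 in iron-deposited teeth, 0.34, 0.27, 0.12 and 0.30 in calcium-deposited teeth and 0.48, 0.27, 0.37 and 0.34 in foot muscle. Immature teeth were lowest, and their 4 arrays overlapped with the other sections only through the lowest iron array and the lowest calcium array. Foot muscle was highest on average and overlapped with both mineralised sections.

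In all, 6 members kept to both limits under each of 8 other ways of assigning, scaling, correcting or reading the arrays, and in all 16 fits that left out 1 array. They were Contig[0050], Contig[0085], Plate-C-C7-5-SMART, Contig[0123], PlateC-G11-5-SMART and PlateE-G1-5-SMART, and 3 of them, Plate-C-C7-5-SMART, PlateC-G11-5-SMART and PlateE-G1-5-SMART, also kept to them when the median of the probes took the place of their mean. These 6 are described first.

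Plate-C-C7-5-SMART, of 290 nt, had values of -0.39, -0.55, -0.40 and -0.47 in immature teeth, -0.41, -0.49, -0.38 and -0.33 in iron-deposited teeth, -0.44, -0.42, -0.094 and -0.38 in calcium-deposited teeth and -0.51, -0.49, -0.22 and -0.52 in foot muscle. Its tissue means were -0.45 ± 0.075 in immature teeth, -0.40 ± 0.069 in iron-deposited teeth, -0.33 ± 0.16 in calcium-deposited teeth and -0.43 ± 0.15 in foot muscle (SD, n = 4 each), the groups overlapped throughout, and the tissue range was 0.12. The highest array of calcium-deposited teeth and the highest array of foot muscle, both replicate 3, stood above the other arrays of their tissue. All 5 of its probes had a tissue range under 0.4, and their levels lay between -1.71 and 0.63. The probe at 17 to 51, its brightest, averaged 0.49 in immature teeth, 0.68 in iron-deposited teeth, 0.75 in calcium-deposited teeth and 0.58 in foot muscle.

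PlateE-G1-5-SMART, of 530 nt, had values of -0.46, -0.68, -0.47 and -0.71 in immature teeth, -0.51, -0.73, -0.60 and -0.78 in iron-deposited teeth, -0.53, -0.69, -0.56 and -0.68 in calcium-deposited teeth and -0.50, -0.90, -0.60 and -0.77 in foot muscle. Its tissue means were -0.58 ± 0.13 in immature teeth, -0.66 ± 0.12 in iron-deposited teeth, -0.62 ± 0.081 in calcium-deposited teeth and -0.69 ± 0.18 in foot muscle (SD, n = 4 each) and its tissue range was 0.11. All 4 groups overlapped, and in every tissue replicates 1 and 3 were above replicates 2 and 4. Its 5 probes each had a tissue range under 0.4, and the brightest, at 369 to 403, averaged 1.03 in immature teeth, 0.90 in iron-deposited teeth, 0.84 in calcium-deposited teeth and 0.92 in foot muscle.

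PlateC-G11-5-SMART, of 225 nt, had values of -0.52, -0.74, -0.72 and -0.71 in immature teeth, -0.34, -0.45, -0.60 and -0.62 in iron-deposited teeth, -0.45, -0.46, -0.57 and -0.73 in calcium-deposited teeth and -0.26, -0.45, -0.35 and -0.71 in foot muscle. The groups overlapped, and foot muscle had both the highest array and one of the lower arrays. Of its 4 probes, those at 46 to 80, 110 to 144 and 173 to 212 were nearly level, and the probe at 145 to 179 averaged -0.55 in immature teeth, -0.32 in iron-deposited teeth, -0.50 in calcium-deposited teeth and 0.063 in foot muscle, a tissue range of 0.61 with foot muscle highest.

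Contig[0050] was the longest member with 1394 nt. Its values were -0.22, -0.37, -0.16 and -0.40 in immature teeth, -0.35, -0.42, -0.32 and -0.40 in iron-deposited teeth, -0.40, -0.37, -0.20 and -0.48 in calcium-deposited teeth and -0.23, -0.15, 0.050 and -0.23 in foot muscle. Foot muscle was highest on average and overlapped with immature teeth and with calcium-deposited teeth, while the 4 iron arrays all lay below the 4 foot muscle arrays. Its brightest probe, at 993 to 1027, was nearly level with a tissue range of 0.26, and its probe at 1126 to 1161 averaged -0.85 in immature teeth, -1.05 in iron-deposited teeth, -0.83 in calcium-deposited teeth and -0.38 in foot muscle.

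Contig[0123], of 608 nt, had values of -0.52, -0.63, -0.46 and -0.62 in immature teeth, -0.57, -0.67, -0.65 and -0.68 in iron-deposited teeth, -0.31, -0.38, -0.30 and -0.41 in calcium-deposited teeth and -0.42, -0.66, -0.44 and -0.51 in foot muscle. The 4 arrays of calcium-deposited teeth all lay above those of immature and of iron-deposited teeth, with a tissue range of 0.29. Its probe at 561 to 595 averaged 1.12 in immature teeth, 1.03 in iron-deposited teeth, 1.41 in calcium-deposited teeth and 1.38 in foot muscle. The means of calcium-deposited teeth and foot muscle were above those of the earlier sections, but the pooled SD of this probe between arrays of one tissue was 0.26.

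Contig[0085], of 559 nt, had values of -0.55, -0.58, -0.65 and -0.55 in immature teeth, -0.38, -0.33, -0.46 and -0.28 in iron-deposited teeth, -0.34, -0.23, -0.23 and -0.28 in calcium-deposited teeth and -0.45, -0.16, -0.52 and -0.31 in foot muscle. The immature arrays all lay below the arrays of the other tissues, whose means were -0.36 ± 0.077 in iron-deposited teeth, -0.27 ± 0.052 in calcium-deposited teeth and -0.36 ± 0.16 in foot muscle, with the immature mean at -0.58 ± 0.046 (SD, n = 4 each). Its level came from 1 of its 4 probes, as described next.

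Orders of immature and calcium arrays rest in part on arrays of unsettled tissue. Under the recorded assignment of the scanner files, the values printed for replicates 2 and 4 of these tissues change places. The immature and calcium arrays of Contig[0085], Contig[0123] and Contig[0059] then overlap, as do the calcium and iron arrays of PlateE-B6-5-SMART. The immature and calcium arrays of Plate-A-B11-5-SMART, which overlapped only narrowly before, then overlap widely. Among replicates 1 and 3 alone, calcium-deposited teeth lay above immature teeth in Contig[0085], Contig[0123] and Contig[0059].

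**Figure D2:**
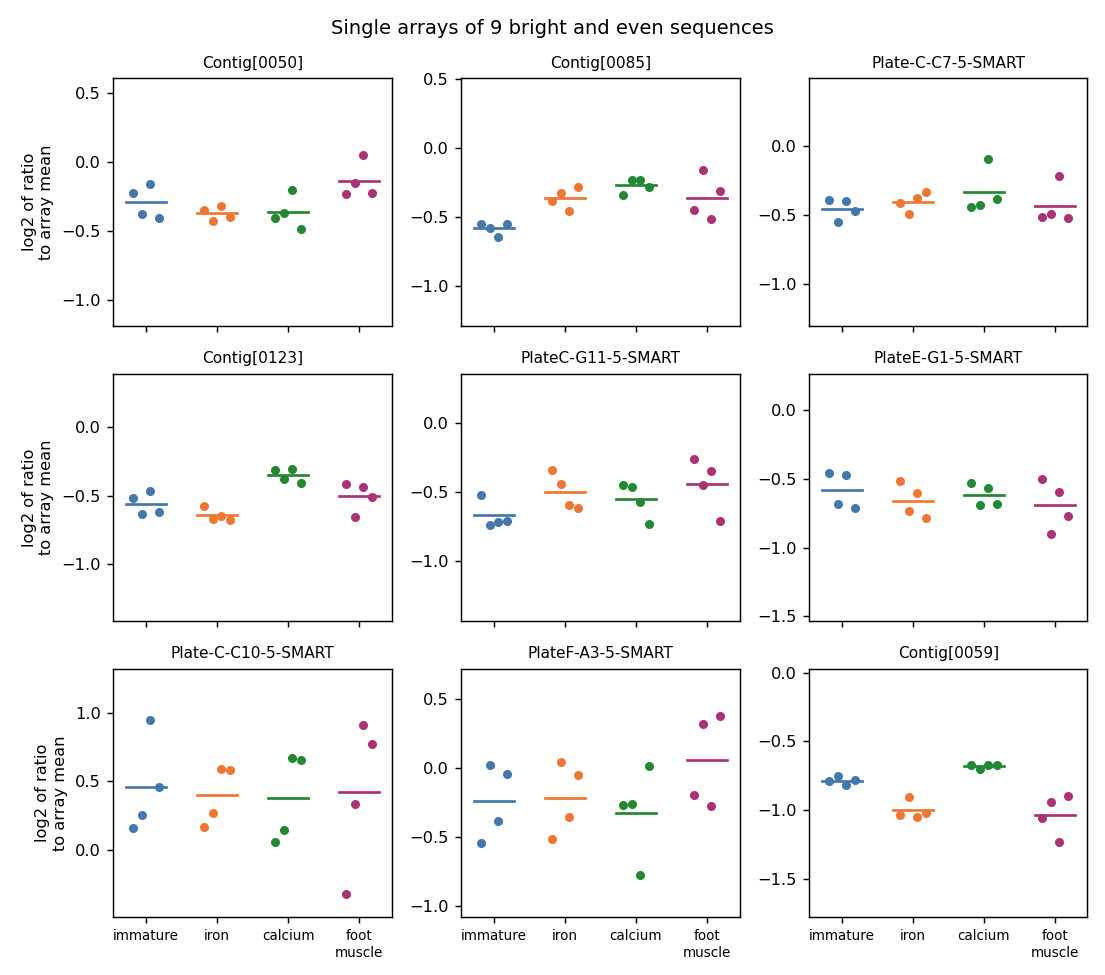
Values of the single arrays (points, replicates 1 to 4 from left to right in each tissue) and tissue means (lines) of 9 members, as log2 of the ratio to the array mean, with the same span on every vertical axis. Plate-C-C7-5-SMART and PlateE-G1-5-SMART overlap across all 4 tissues, Plate-C-C10-5-SMART has nearly equal means with a wide spread of arrays, and the calcium arrays of Contig[0059] cluster between -0.70 and -0.67, above all its other arrays.

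The probes of a member were often far apart in signal. The brightness of a probe depends on its own letters as well as on the RNA, so a difference in signal between probes cannot be read as a difference in RNA. In the 31 members with 2 or more probes, the brightest probe exceeded the dimmest by a median of 2.39, against 2.08 in the bright sequences that were not even. At least 1 probe below the median of all probes (-1.47) was found in 23 members, and 37 of the 140 member probes lay there. Above the upper quartile of all probes (-0.64) lay 54 of them. Within members, 19 also had probes that overlap in position, in 29 of 255 probe pairs, and such probes share bases.

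Single probes of members were not all even, although the means of their sequences were so by the rule. A tissue range under 0.4 was found for 97 of the 140 member probes (69.3%), against 57.0% of all probes. In 37 probes the tissue range was 0.4 to 0.8 and in 6 it was 0.8 or more. All probes of a sequence were under 0.4 in 7 members, 1 of which, Plate-C-C10-5-SMART, has a single probe. The member probes below the median of all probes had a median tissue range of 0.14, and those above the upper quartile had 0.43. The files hold no background measurement, and whether these dim probes reported the RNA or the background of the array was not tested.

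The rule favours sequences with bright and even probes, and these shares are given as a description. Of the 54 member probes above the upper quartile, 25 (46.3%) had a tissue range under 0.4, against 34 of the 560 such probes on the whole array (6.07%). The brightest probe of a member had a tissue range under 0.4 in 12 members and of 0.4 or more in 20, with a median of 0.58. In 5 members it was 0.8 or more. Such a member was even in the mean of its probes and not in its strongest signal.

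**Figure D3:**
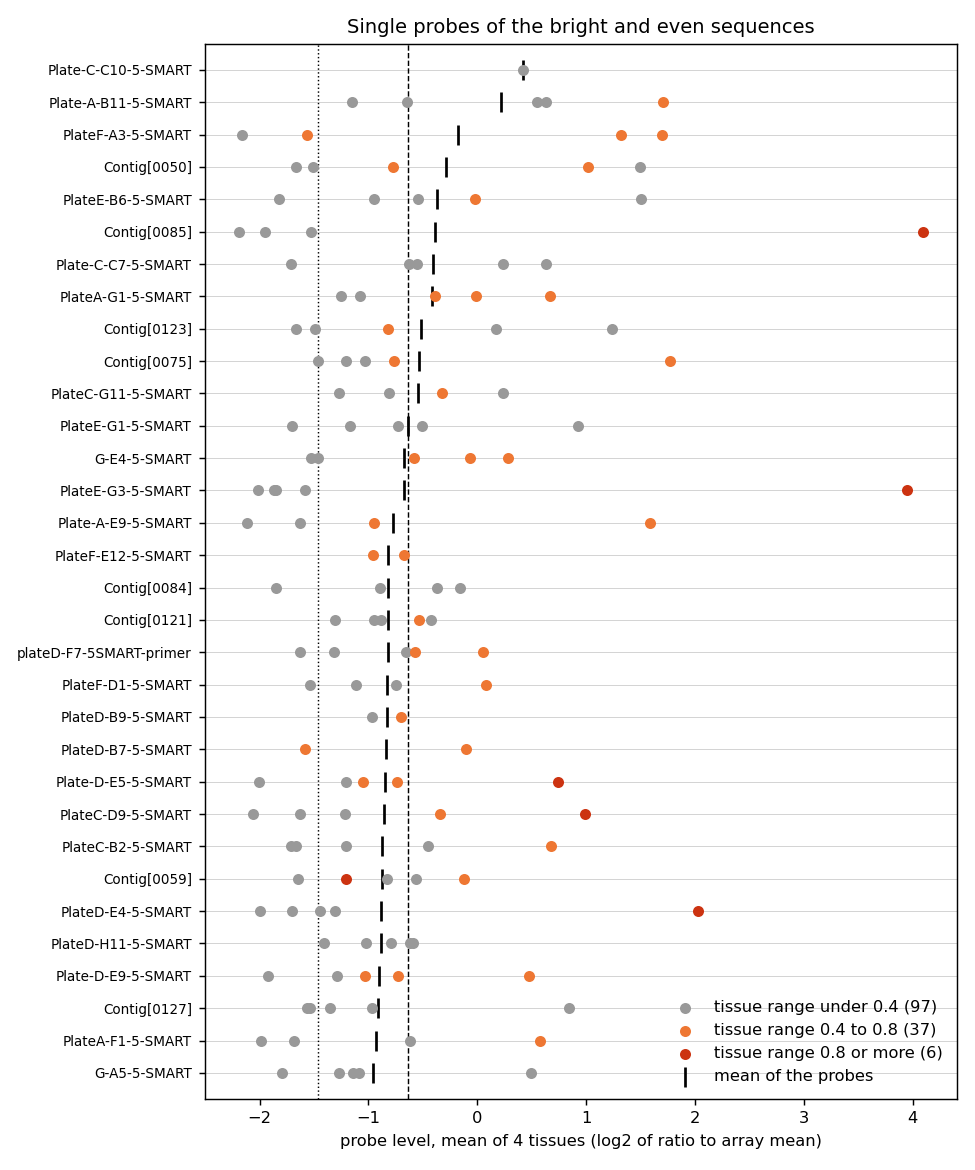
Level of each of the 140 probes (points, log2 of the ratio to the array mean) and the mean of the probes (bars) for the 32 members, coloured by the tissue range of the probe, with the median of all probes (dotted) and the upper quartile (dashed). Contig[0085] and PlateE-G3-5-SMART each have 1 probe near 4 and their other probes below -1.5, and the 6 probes with a tissue range of 0.8 or more lie in 6 members.

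Contig[0085] was the clearest case. Its probe at 366 to 400 had a level of 4.09 and values of 3.58, 3.24, 3.31 and 3.47 in immature teeth, 4.28, 4.12, 3.99 and 4.18 in iron-deposited teeth, 4.70, 4.70, 4.70 and 4.28 in calcium-deposited teeth and 4.39, 4.28, 3.99 and 4.28 in foot muscle. Equal values stand for equal ranks, which quantile normalisation gives one value. On this probe the immature arrays lay below all others and the tissue range was 1.195, the largest of any member probe, with calcium-deposited teeth highest. The 3 other probes of the contig had levels of -2.19 to -1.53 and tissue ranges of at most 0.20. The mean over the 4 probes was thereby held to a tissue range of 0.31.

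The bright probe of Contig[0085] shares 28 letters in a row with the probe at 110 to 144 of G-C9-5-SMART, as capitals show above. G-C9-5-SMART is not a member, with a level of 2.84 (rank 4 of 493) and a tissue range of 0.91. Its probe averaged 2.68 in immature teeth, 3.69 in iron-deposited teeth, 3.58 in calcium-deposited teeth and 3.28 in foot muscle, again with immature teeth lowest, but with iron-deposited teeth highest. The other 3 probes of G-C9-5-SMART, at 59 to 93, 128 to 162 and 164 to 198, were bright too, with levels of 2.98, 1.91 and 3.16. PlateC-G11-5-SMART shares 19 letters of the same run in its probe at 46 to 80, which was dim, with a level of -0.81 and a tissue range of 0.21. Whether these probes bound the same RNA was not tested.

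PlateE-G3-5-SMART, of 661 nt, showed the same pattern. Its probe at 565 to 599 had a level of 3.95 and values of 3.99, 3.31, 3.24 and 3.58 in immature teeth, 4.04, 3.88, 3.52 and 3.52 in iron-deposited teeth, 4.92, 4.04, 2.99 and 4.12 in calcium-deposited teeth and 4.55, 4.70, 4.18 and 4.55 in foot muscle. Foot muscle was highest on average, with a tissue range of 0.96, and its 4 arrays overlapped only with the calcium arrays, which were spread the most. The 4 other probes had levels of -2.01 to -1.58 and tissue ranges of at most 0.26, and 1 of them, at 536 to 571, overlaps the bright probe by position and had a level of -1.87. The mean of the sequence had a tissue range of 0.24.

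In Contig[0059], of 575 nt, probes of one sequence differed in opposite directions. The probe at 425 to 459 had values of -0.94, -1.09, -1.03 and -1.08 in immature teeth, -1.29, -1.37, -1.18 and -1.17 in iron-deposited teeth, -0.78, -0.88, -0.40 and -0.68 in calcium-deposited teeth and -1.89, -1.75, -2.02 and -1.76 in foot muscle, with all foot muscle arrays below all others and a tissue range of 1.17. The probe at 17 to 51 had values of -0.33, -0.079, -0.38 and -0.057 in immature teeth, -0.34, -0.013, -0.62 and -0.67 in iron-deposited teeth, 0.064, 0.12, -0.48 and -0.22 in calcium-deposited teeth and 0.32, 0.11, 0.11 and 0.45 in foot muscle, with foot muscle highest on average and a tissue range of 0.66. The mean over 5 probes had a tissue range of 0.35, with -0.79 ± 0.028 in immature teeth, -1.002 ± 0.065 in iron-deposited teeth, -0.68 ± 0.016 in calcium-deposited teeth and -1.03 ± 0.15 in foot muscle (SD, n = 4 each), and its calcium arrays lay between -0.70 and -0.67, above all its other arrays.

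A second shared run joined 2 members. The probe of PlateF-E12-5-SMART at 152 to 188 and that of PlateD-B7-5-SMART at 26 to 65 have 22 letters in common. The first averaged -0.73 in immature teeth, -0.90 in iron-deposited teeth, -0.23 in calcium-deposited teeth and -0.82 in foot muscle, and the second -1.54 in immature teeth, -1.78 in iron-deposited teeth, -1.17 in calcium-deposited teeth and -1.85 in foot muscle. Both were highest in calcium-deposited teeth, with tissue ranges of 0.67 and 0.68, at different brightness. The 2 probes share bases and are not independent observations. PlateF-E12-5-SMART also shares a run of 16 letters with a probe of Plate-D-F2-5-SMART, which is no member, and the probes of 28 members share no run of 16 or more letters with a probe of another sequence.

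The differences that remained among the members did not fall evenly over the tissues, and nor did those of all sequences. The highest tissue mean was in immature teeth in 3 members, in iron-deposited teeth in 3, in calcium-deposited teeth in 9 and in foot muscle in 17, but with median scaling the counts were 4, 11, 11 and 6, and with cyclic loess 9, 11, 6 and 6, in the same order of tissues. With the files as recorded they were 3, 3, 4 and 22, and with the 4 disputed arrays left out 3, 3, 10 and 16. The lowest was in immature teeth in 10, in iron-deposited teeth in 11, in calcium-deposited teeth in 8 and in foot muscle in 3. The median of the members' tissue means was -0.82 in immature teeth, -0.77 in iron-deposited teeth, -0.74 in calcium-deposited teeth and -0.60 in foot muscle. Of the 54 bright member probes, 37 were highest in foot muscle, against 277 of the 560 bright probes on the array. Over all 493 sequences, the highest mean was in immature teeth in 63, iron-deposited teeth in 68, calcium-deposited teeth in 67 and foot muscle in 295. Their lowest mean was in 152, 209, 69 and 63, in the same order of tissues.

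This lean towards foot muscle turned with the scaling. Foot muscle minus the mean of the 3 sections had a median over the members of 0.13 with quantile normalisation, and over all sequences of 0.10. It was 0.17 with no further scaling, 0.20 with scaling to the 75th percentile and 0.16 after normexp background correction. With scaling to the median of each array it was -0.054, and with cyclic loess -0.063, with the sections above foot muscle, and foot muscle was then highest in 6 members under each. Over all sequences the same difference was 0.34 with no further scaling, 0.37 with the 75th percentile, 0.12 with median scaling and 0.021 with cyclic loess. No direction of the members between sections and foot muscle is therefore drawn.

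**Figure D4:**
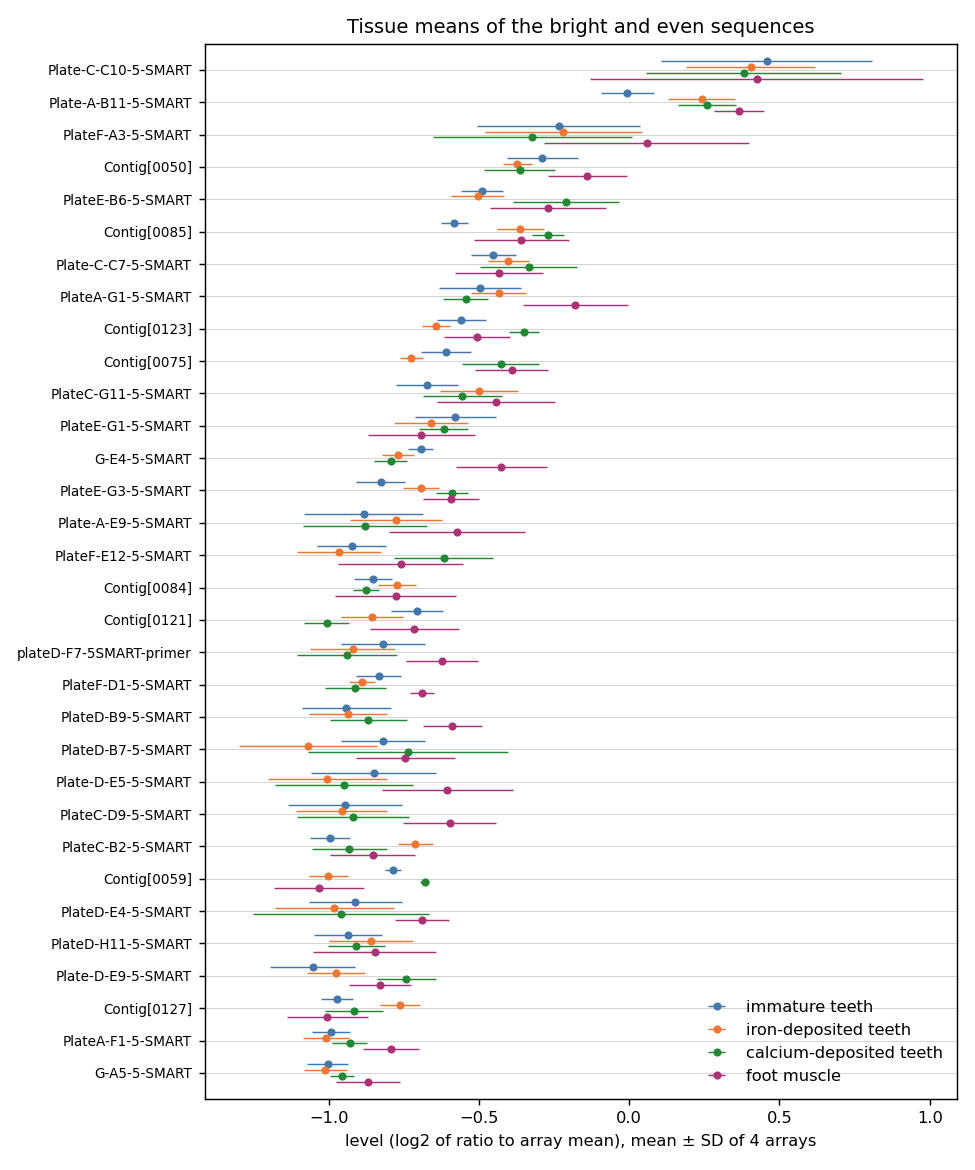
Tissue means (points) and SD over 4 arrays (bars) of the 32 members in immature, iron-deposited and calcium-deposited teeth and foot muscle, as log2 of the ratio to the array mean. The 4 means of a member lie within 0.40 of each other by the rule. Foot muscle is the highest mean in 17 members with quantile normalisation, but in 6 with median scaling or cyclic loess.

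As a share of the summed signal of an array, the 140 member probes held 5.08% to 6.40% in immature teeth, 5.69% to 7.08% in iron-deposited teeth, 5.74% to 7.35% in calcium-deposited teeth and 6.05% to 7.21% in foot muscle. The ranges of the 4 tissues overlapped.

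Small ranges are not the same as shown equality. With limma's linear model over all 16 arrays, the 95% intervals of the 6 pairwise tissue differences were taken for each member, and the bound farthest from 0 lay between 0.26 and 0.79, with a median of 0.47. It was below 1, a 2-fold difference, in all 32 members, below a 1.5-fold difference in 27 and below 0.5 in 20. It was smallest in G-A5-5-SMART and Contig[0084], at 0.26 in both, and largest in PlateF-A3-5-SMART. The intervals describe members chosen for small differences and cover only the spread between arrays recorded as one tissue.

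The moderated F-test of limma for any difference among the 4 tissues, with Benjamini-Hochberg adjustment over all sequences, called 345 of 493 sequences (70.0%). Among members it called 20 of 32 (62.5%), and as the rule used the same contrast nothing is read from this share. At the level of single probes it called 977 of 2240 (43.6%) and 32 of the 140 member probes (22.9%), which lay in 21 members. With the 4 disputed arrays left out, 17 members and 319 of all 493 sequences were called, and with the files as recorded 9 and 215. No further scaling gave 1 and 154, scaling to the median 3 and 173, and the 75th percentile 2 and 180. Cyclic loess gave 9 and 210, and array weights 24 and 388. Nothing is read from these member counts either.

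Among the other members, the tissue range was above 0.3 in 15 of all 32 and under 0.2 in 6. The smallest after Plate-C-C10-5-SMART were those of PlateD-H11-5-SMART (0.087) and Contig[0084] (0.10). PlateD-H11-5-SMART, of 830 nt, had values of -0.79, -0.98, -0.91 and -1.06 in immature teeth, -0.67, -0.89, -0.87 and -0.9999 in iron-deposited teeth, -0.81, -0.89, -0.90 and -1.03 in calcium-deposited teeth and -0.59, -1.03, -0.78 and -0.99 in foot muscle, and its groups overlapped throughout. Contig[0084], of 278 nt, had values of -0.88, -0.84, -0.91 and -0.77 in immature teeth, -0.77, -0.75, -0.86 and -0.71 in iron-deposited teeth, -0.88, -0.89, -0.92 and -0.82 in calcium-deposited teeth and -0.96, -0.61, -0.94 and -0.60 in foot muscle, with 2 of the 4 foot muscle arrays above and 2 below every section array.

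The spread between arrays of one tissue was smallest in PlateF-D1-5-SMART (pooled SD 0.070), PlateE-G3-5-SMART (0.074) and PlateA-F1-5-SMART (0.074). PlateF-D1-5-SMART had values of -0.91, -0.77, -0.89 and -0.76 in immature teeth, -0.93, -0.85, -0.92 and -0.85 in iron-deposited teeth, -0.94, -0.89, -1.03 and -0.79 in calcium-deposited teeth and -0.69, -0.74, -0.68 and -0.64 in foot muscle, with every foot muscle array above every section array. It was largest, after Plate-C-C10-5-SMART, in PlateF-A3-5-SMART (0.30) and PlateD-B7-5-SMART (0.23). PlateF-A3-5-SMART, of 144 nt, had values of -0.54, 0.026, -0.38 and -0.042 in immature teeth, -0.52, 0.046, -0.35 and -0.052 in iron-deposited teeth, -0.26, -0.26, -0.78 and 0.015 in calcium-deposited teeth and -0.19, 0.32, -0.28 and 0.38 in foot muscle, and the groups overlapped widely although its tissue range of 0.38 was near the limit. PlateD-B7-5-SMART, the shortest member with 96 nt, had values of -0.65, -0.84, -0.99 and -0.80 in immature teeth, -0.93, -0.85, -1.37 and -1.11 in iron-deposited teeth, -0.33, -0.59, -1.005 and -1.01 in calcium-deposited teeth and -0.72, -0.57, -0.97 and -0.72 in foot muscle, and again all groups overlapped.

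Of the remaining bright members, PlateE-B6-5-SMART, of 297 nt, had values of -0.44, -0.57, -0.42 and -0.52 in immature teeth, -0.51, -0.62, -0.41 and -0.48 in iron-deposited teeth, -0.35, -0.33, 0.035 and -0.20 in calcium-deposited teeth and -0.34, -0.37, 0.017 and -0.39 in foot muscle. Its calcium arrays all lay above its iron arrays, and 1 foot muscle array stood near the highest calcium array. PlateA-G1-5-SMART, of 830 nt, had values of -0.34, -0.51, -0.46 and -0.67 in immature teeth, -0.32, -0.52, -0.40 and -0.50 in iron-deposited teeth, -0.48, -0.61, -0.48 and -0.60 in calcium-deposited teeth and 0.016, -0.30, -0.083 and -0.35 in foot muscle, and 3 of the 4 foot muscle arrays lay above every section array, while the lowest was below 1 immature and 1 iron array. G-E4-5-SMART, also of 830 nt, had values of -0.64, -0.72, -0.73 and -0.69 in immature teeth, -0.70, -0.75, -0.83 and -0.80 in iron-deposited teeth, -0.71, -0.82, -0.82 and -0.81 in calcium-deposited teeth and -0.32, -0.62, -0.30 and -0.47 in foot muscle, and its foot muscle arrays all lay above every section array. The difference in G-E4-5-SMART stayed within the limit only narrowly, with a tissue range of 0.37.

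Values of the members also moved with the replicate number, a comparison that the choice of members did not use and that was chosen after seeing the data. The labels do not say what a number marks, and arrays of one number lie in 4 different slide sectors. In a limma model with tissue and replicate number as terms, the moderated F-test over the 4 numbers called 243 of 493 sequences (49.3%) and 27 of the 32 members, against 62 of the 136 bright sequences that were not even. With the 4 disputed arrays left out it called 132 sequences, 19 of them members, and with the files as recorded 109, 16 of them members. The range of the 4 replicate-number means had a median of 0.22 in members, 0.20 in bright sequences that were not even and 0.15 in all sequences. With median scaling, 26 members, 94 of the bright sequences that were not even and 271 of all 493 sequences (55.0%) were called. The medians of the replicate-number range were then 0.39 in members, 0.51 in bright sequences that were not even and 0.25 in all. With cyclic loess, 27, 65 and 236 (47.9%) were called, in the same order, and the medians were 0.26, 0.27 and 0.17. The order of these medians between members and bright sequences that were not even thus turned with the scaling. Under quantile normalisation, median scaling and cyclic loess, a larger share of members was called than of those sequences (45.6%, 69.1% and 47.8%). With the 75th percentile, 23 of the 32 members and 384 of all 493 sequences were called, and with no further scaling 26 and 384. The bright sequences that were not even were not counted under these other scalings, so no excess of members that holds under every scaling is drawn.

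In Plate-C-C10-5-SMART, the means over tissues of replicates 1 to 4 were 0.017, 0.25, 0.78 and 0.62, with an adjusted p of 0.00111 by limma, beside a tissue range of 0.076. In PlateE-G1-5-SMART they were -0.50, -0.75, -0.56 and -0.74, with an adjusted p of 0.000799 by limma. In PlateD-H11-5-SMART their range was 0.31, beside a tissue range of 0.087. These members were among the 4 most even, and the rule held all members to a tissue range under 0.4, so nothing is read from this contrast. The replicate-number range exceeded the tissue range in 12 of the 32 members and in 104 of all 493 sequences (21.1%). These counts were 22 and 187 with median scaling and 20 and 189 with cyclic loess. Replicates 1 and 3 lay above 2 and 4 in all 4 tissues in 6 members, and the reverse held in 2, PlateF-A3-5-SMART and PlateC-D9-5-SMART. Whether the numbers mark animals, days or hybridisations was not tested.

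The choice of members depended on how signals were processed. Of the 32, scaling to the median kept 29, cyclic loess 29, scaling to the 75th percentile 25 and no further scaling 24. Reading the median in place of the mean of the foreground pixels kept all 32, and normexp background correction kept 8. Of the 24 members lost with normexp, 19 failed the level limit and 12 the range limit, some of them both. Normexp also moved the median level of all sequences from -1.34 to -1.84, while the level limit stayed at -1. Taking the median of the probes kept 14. When only probes above the median probe were averaged, 21 of the 32 stayed and 23 other sequences came in. Leaving out 1 array at a time kept 28 to 32, and 23 members stayed in all 16 such fits.

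**Figure D5:**
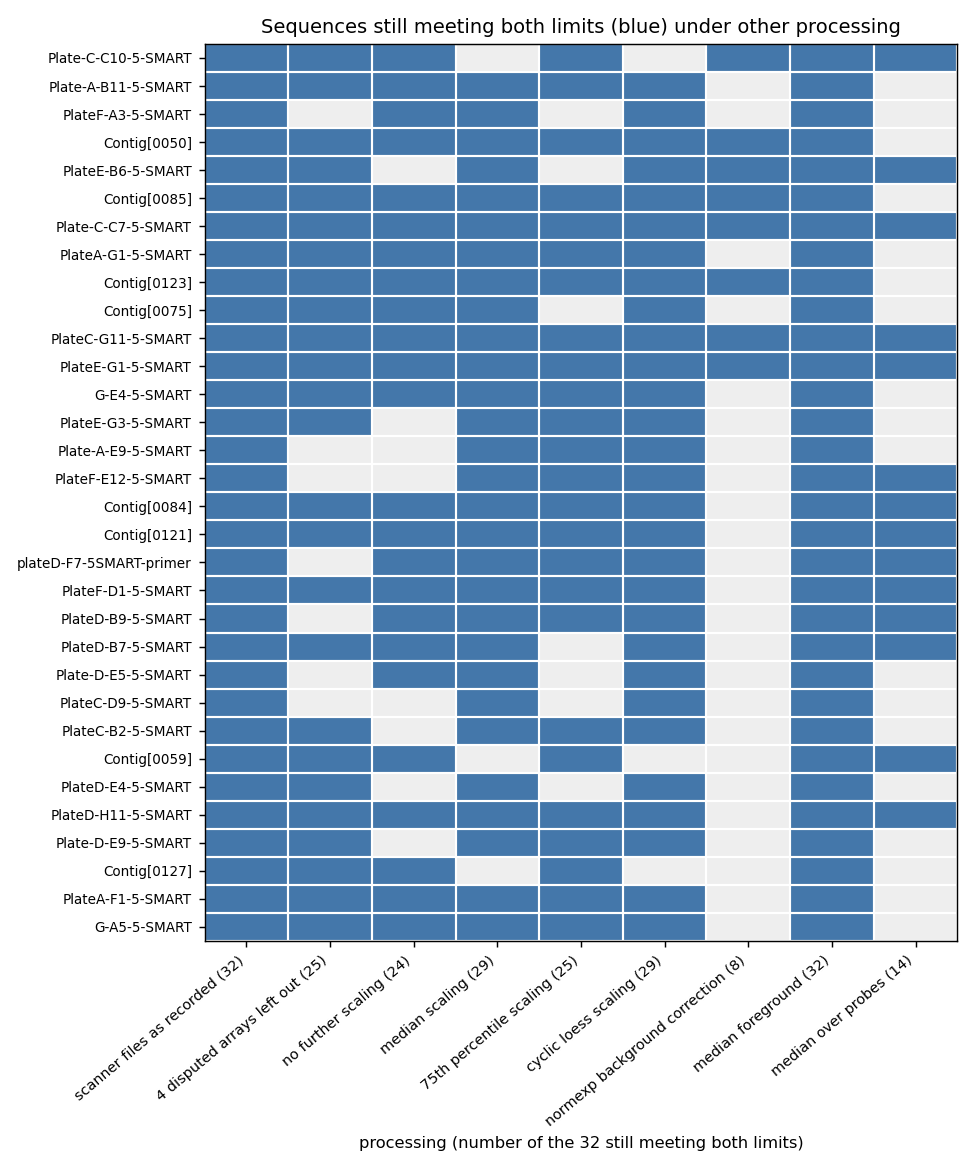
The 32 members, in order of level from the top, under 9 other ways of processing, with blue where both limits were still met and the number of members in brackets. The 6 members with blue in the first 8 columns are Contig[0050], Contig[0085], Plate-C-C7-5-SMART, Contig[0123], PlateC-G11-5-SMART and PlateE-G1-5-SMART. Normexp background correction kept 8 and the median over probes 14.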

How the data were processed

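Single-colour arrays measured Cy5-labelled total RNA of 3 radula sections and foot muscle, 4 arrays per tissue and 3 animals per pool. Groups and replicate numbers came from the sample titles. The authors deposited a value table whose values are a ratio, each probe's mean foreground over the mean of all probes of its array, with no background correction; this was found by setting the columns against the scanner tables. Per the file headers, the scanner tables hold the mean and median foreground intensity of each spot, with 1 spot per probe and no background column. The extraction software is not given in the sources used here. No value could be called above background.

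The deposited ratio was taken to log2, quantile-normalised and averaged as the rule states, with no filter and no pseudocount. R 4.3.3 and limma 3.58.1 (lmFit, eBayes, two-sided, all 16 arrays) gave moderated F-tests and 95% intervals, with Benjamini-Hochberg adjusted p under 0.05 called. Per the labels, pools of one tissue are separate samples, and p-values measure the spread between arrays. Pools of different tissues came from the same animals, and fits without a block for replicate number treat all 16 arrays as independent.

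Other settings were the scanner files as recorded, the 4 disputed arrays left out, other scalings, normexp with an offset of 50, median foreground, other summaries of probes, other limits, blocks for replicate number and slide sector, array weights and leaving out each array. The members and lists were chosen with earlier results of these data known. The members named were the 8 brightest, the 4 most even, the 4 on each side of each limit, the 3 with the smallest and the 3 with the largest spread within tissues, the 3 with the widest single probe and the 4 brightest that met the limits under all other assignments, scalings, background and spot readings. PlateC-G11-5-SMART, PlateE-G1-5-SMART (also among the most even), G-C9-5-SMART, PlateF-E12-5-SMART, Plate-D-F2-5-SMART and the members in the closing section were added after their values were seen.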

Additional observations from a re-analysis of the deposited data

Results flagged for a closer look

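In 8 of 128 groups of 4 arrays (32 members in 4 tissues), 1 array stood so far from the other 3 that its gap to the nearest, over the whole range of the group, exceeded Dixon's critical value. Chance flags about 1 in 20 groups. In foot muscle, replicate 3 was the high array of 2 members, with 0.017 for PlateE-B6-5-SMART (others -0.39 to -0.34) and -0.22 (-0.215 unrounded) for Plate-C-C7-5-SMART (others -0.52 to -0.49). In iron-deposited teeth, replicate 2 was high for plateD-F7-5SMART-primer at -0.71 (others -1.01 to -0.96) and replicate 3 was low for Plate-D-E9-5-SMART at -1.12 (others -0.94 to -0.92). In calcium-deposited teeth, replicate 3 was low for Plate-D-E5-5-SMART at -1.29 (others -0.85 to -0.80), replicate 1 was high for G-E4-5-SMART at -0.71 (others -0.82 to -0.81), and replicate 2, one of the 4 disputed arrays, was low for Contig[0059] at -0.70 (others -0.67 each). In immature teeth, replicate 1 was high for PlateC-G11-5-SMART at -0.52 (others -0.74 to -0.71).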

How the results depend on the processing

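The count of sequences meeting both limits (32) changed by over 1.5 times to 51 with cyclic loess, 8 with normexp and 14 with the median over probes. Limits set elsewhere gave 2 at a level of 0, 301 at -2 and 17 at a range of 0.3. Leaving out 1 array gave 28 to 34. Sequences called for a tissue difference (345) numbered 215 with the files as recorded, 154 with no further scaling, 173 with median scaling, 180 with the 75th percentile and 210 with cyclic loess, and 307 to 352 with 1 array left out. Called probes (977) numbered 522 with the files as recorded, 609 with no further scaling and 599 with median scaling, and 929 to 987 with 1 array left out. Of the tissue ranges of members recomputed under 27 settings, 789 moved by less than the SD between arrays of a tissue and 71 by more. Sequences called for a difference among replicate numbers (243, 27 of them members), a result added after seeing the data, numbered 109 with the files as recorded (16 members), 132 with the 4 disputed arrays left out (19 members), 384 with no further scaling (26 members), 384 with the 75th percentile (23 members) and 146 with the median over probes (18 members), and 195 to 257 with 1 array left out. Other settings kept these 4 counts within 1.5 times. The cause was not tested.

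With replicate number as a block, 413 sequences, 27 of them members (20 without the block), and 1241 probes were called. Whether numbers pair the arrays was checked by correlating deviations from the tissue means. Every pair of calcium and iron arrays of one number (0.46 to 0.68), and every other pairing of tissues, was over 0.1, except calcium and immature, with -0.13 to 0.50 and 3 of 4 over 0.1. For each array, correlations with the arrays of the other tissues were averaged per number. In 13 of the 16 arrays this mean was highest for their own number. What a number marks is not given in the labels, and it was not tested. By design, foot muscle and sections came from the same animals, so arrays of different tissues are not independent of each other. Since 1 pairing of tissues missed the minimum and the labels do not say that a number marks the same animals, the fits without the block are reported. Those fits leave the shared animals out of account.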
